A study of Mus musculus with 15 samples.

Results

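The set comprised 39 cell cycle and DNA replication genes, taken as the lines of the count table whose Entrez number maps to a listed mouse symbol. All 39 of the 39 listed genes had values, among 17892 genes with values, and all 39 passed the filter on low counts that left 14853 genes for testing. They were divided by role into 17 genes of DNA replication and entry into S phase (Mcm2 to Mcm7, Pcna, E2f1, Ccne1, Ccne2, Rrm1, Rrm2, Tyms, Cdc6, Cdt1, Gins2 and Uhrf1) and 22 genes of G2 phase and mitosis (Mki67, Top2a, Cenpf, Cenpe, Ccnb1, Ccnb2, Ccna2, Cdc20, Cdk1, Bub1, Bub1b, Aurka, Aurkb, Plk1, Birc5, Tpx2, Kif11, Kif20a, Kif23, Nusap1, Ube2c and Depdc1a). RNA was sequenced from cells carrying the receptor PDGFRβ, isolated from newborn mice that were wild type (WT) or lacked the microRNA miR-210 (KO). The cells came from sham animals or from animals 24 h after neonatal hypoxic-ischemic brain injury (HI). There were 3 WT sham, 4 WT HI, 4 KO sham and 4 KO HI libraries, each named here by its group and its label number. The labels give neither the strain, the exact age, the time of the sham samples nor whether the deletion of miR-210 is limited to a cell type. They also do not say whether libraries of a group came from separate animals, so the p-values below measure the spread between these libraries, which may be technical. miR-210 itself was not analysed here, and the genotype labels were not checked against it.

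Cells copy their DNA once per division. The retinoblastoma protein and E2F factors control the genes of entry into S phase, among them the MCM helicase subunits, the sliding clamp PCNA and the enzymes that make deoxynucleotides. Genes of G2 phase and mitosis follow later, under the DREAM and B-MYB/FOXM1 complexes, which reach promoters through CCAAT boxes bound by NF-Y and through the cell cycle genes homology region (CHR). Blood vessels of the newborn brain are still growing, and their mural cells, which carry PDGFRβ, divide. In a bulk library, fewer dividing cells and less RNA of these genes per cell cannot be told apart.

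Promoter windows are shown first, because the 2 roles are known for different promoter elements. RefSeq (build GRCm38.p6) gave windows from 250 bases before to 50 after the start site for 32 of the 39 genes, 14 of replication and 18 of mitosis. Ccna2, Ccne2, Kif20a, Tpx2, Aurkb, Gins2 and Mcm4 had no entry. The letters searched on both strands were TTGGCGC or TTCGCGC for E2F, CCAAT for NF-Y, and TTTGAA or TTCGAA for the CHR. The E2F letters can overlap each other (as in Mcm6) and those of NF-Y. Below are the 150 bases before the start site, written 5′ to 3′ on the gene's strand with matches on either strand in capitals. They show the 2 mitosis genes Depdc1a and Cdc20, which fell after HI in WT, then Cdk1, which holds all 3 kinds of letters, and the replication gene Mcm6.
Depdc1a, chr3:159495283-159495432, plus strand: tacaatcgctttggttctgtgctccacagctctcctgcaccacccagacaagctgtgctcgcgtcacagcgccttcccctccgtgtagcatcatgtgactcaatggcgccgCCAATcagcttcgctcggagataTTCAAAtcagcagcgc
Cdc20, chr4:118437344-118437493, minus strand: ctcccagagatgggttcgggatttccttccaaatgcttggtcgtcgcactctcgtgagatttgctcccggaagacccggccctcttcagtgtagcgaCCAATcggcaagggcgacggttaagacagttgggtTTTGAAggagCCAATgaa
Cdk1, chr10:69352913-69353062, minus strand: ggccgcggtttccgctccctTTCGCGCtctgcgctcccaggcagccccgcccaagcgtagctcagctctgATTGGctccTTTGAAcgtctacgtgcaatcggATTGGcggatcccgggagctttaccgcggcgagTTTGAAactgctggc
Mcm6, chr1:128359706-128359855, minus strand: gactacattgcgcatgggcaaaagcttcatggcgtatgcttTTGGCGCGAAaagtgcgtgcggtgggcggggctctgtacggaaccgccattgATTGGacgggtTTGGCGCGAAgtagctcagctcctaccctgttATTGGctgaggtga

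In Depdc1a the CHR letters began 16 bases before the start site, in Cdc20 18 bases before it and in Cdk1 15 and 71 bases before it. Each of these 3 windows held CCAAT on 1 of its strands upstream of a CHR match, at 39 bases in Depdc1a, 53 bases in Cdc20 and 48 and 80 bases in Cdk1. Mcm6 held no CHR letters and 2 overlapping pairs of E2F letters, beginning 109, 106, 46 and 43 bases before the start. Over the 300-base windows, CHR letters were in 14 of 18 mitosis genes (77.8%), in 2 of 14 replication genes (14.3%; Mcm2 and Mcm7) and in 21.7% of all 27025 genes with a window. CCAAT was in 16 of 18 mitosis genes (88.9%), in 9 of 14 replication genes (64.3%) and in 41.1% of all genes. E2F letters were in 6 of 14 replication genes (42.9%), namely Mcm3, Mcm5, Mcm6, Mcm7, Cdt1 and Uhrf1, in 3 of 18 mitosis genes (16.7%) and in 4.47% of all genes. The window of E2f1 held none of these letters. Much of its sequence before the start given by RefSeq reads as protein-coding, so it does not describe the E2f1 promoter. It is still counted among the 14 replication genes as a window without a match. The window of Pcna held CCAAT alone. These matches describe the windows and are not binding sites. The CHR share of the mitosis genes was 50% in the 250 bases before the start alone, since 5 genes, Cenpf and Kif23 among them, had matches only after it. The E2F share of the replication genes was 21.4% (3 of 14) in those 250 bases, near the unchanged 16.7% of the mitosis genes and against 3.66% of all genes.

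**Figure D1:**
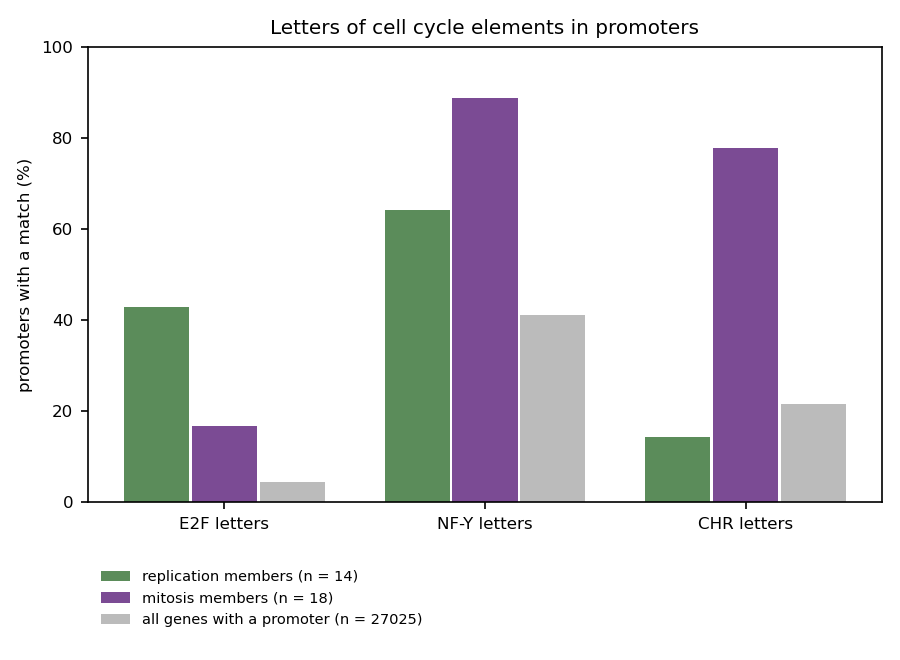
Share of promoter windows of 300 bases (y axis, percent) that hold the letters of E2F, NF-Y and CHR elements (x axis), for 14 replication genes, 18 mitosis genes and all 27025 genes with a window. CHR letters were in 77.8% of the mitosis genes, against 14.3% of the replication genes and 21.7% of all genes.

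Library totals lay between 15436376 and 18118697 expected counts. Levels below are counts scaled to library size (CPM) after TMM scaling, and no member had fewer than 83 counts in any library. The pericyte genes Pdgfrb and Rgs5 were detected in all 15 libraries, with 194 to 1050 and 712 to 6120 CPM. Genes of other cell types were present too, and no defining marker of the lists was at 0 in any library. The summed CPM of 12 pericyte genes was 8210 to 11400 in WT sham, 5960 to 8330 in WT HI, 2950 to 8590 in KO sham and 1710 to 5750 in KO HI. That of 12 microglia and macrophage genes was 2850 to 4120, 2200 to 5500, 3860 to 6670 and 6980 to 14800 in the same order. The sums of these pericyte and microglia and macrophage lists overlapped between WT and KO in sham, where 0 of their genes were called, and not after HI. Endothelial genes (11 genes) summed to 7970 to 9430, 7330 to 9520, 2780 to 8180 and 2280 to 4830 CPM in the same order. Choroid plexus genes (7 genes) summed to 53500 CPM in KO HI 2 and 26900 CPM in KO sham 3, and to as little as 127 CPM in WT HI 1. Neuron genes (11 genes) summed to 2100 in KO sham 1 and 1290 in KO HI 3, against 47.1 to 402 in the other 13 libraries.

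**Figure D2:**
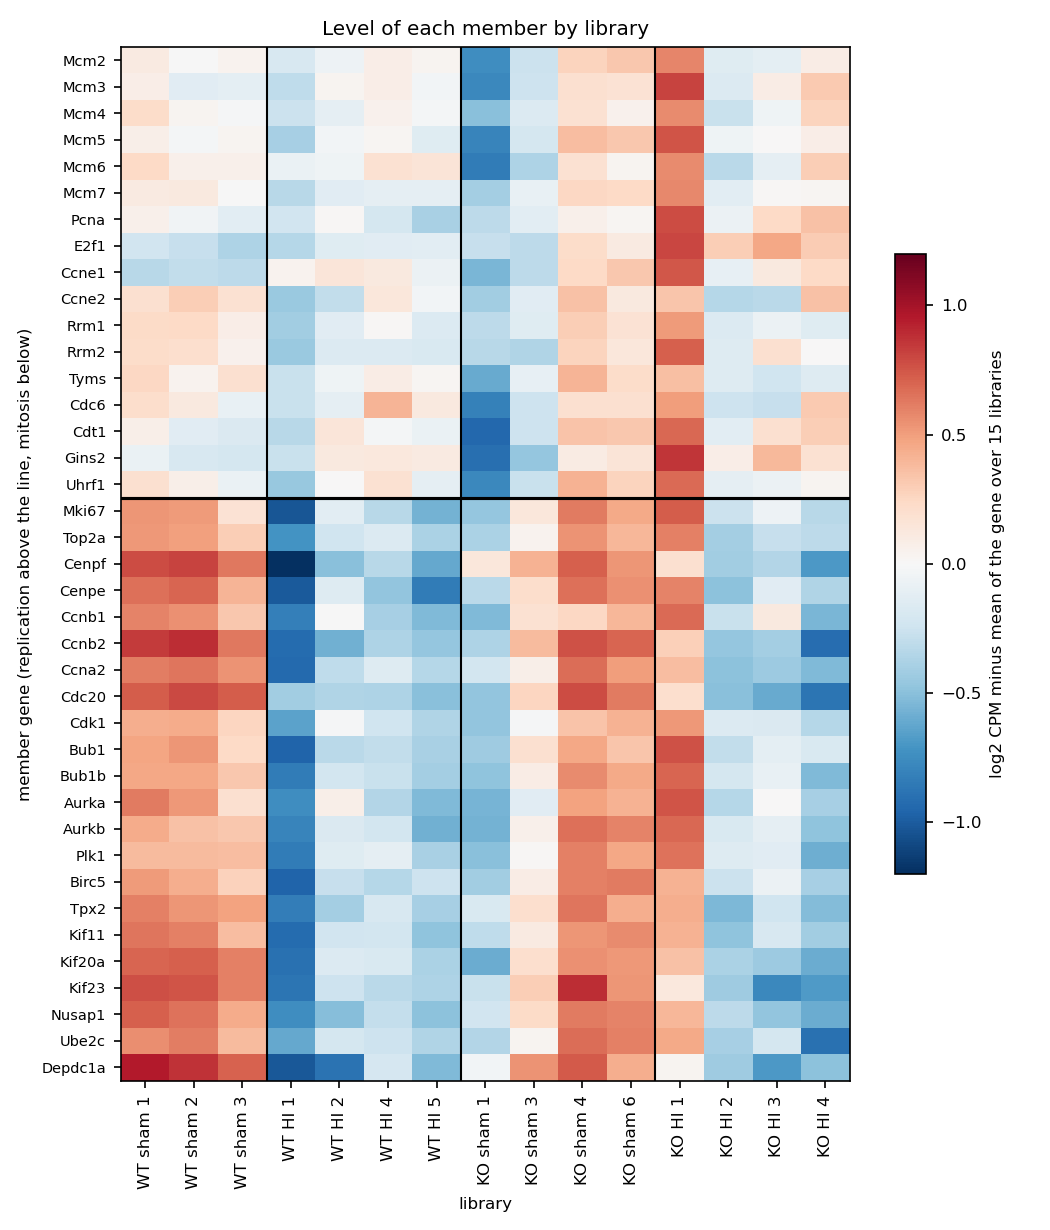
Level of each of the 39 genes (rows; replication above the line, mitosis below) in each of the 15 libraries (columns), as log2 CPM minus the gene's mean over the 15 libraries; red is above and blue below that mean, and the colours stop at the ends of the bar. The mitosis rows are red in WT sham and blue in WT HI, KO sham 1 is low in most rows, and KO HI 1 is high in most rows.

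In WT animals, mitosis genes fell 24 h after HI while replication genes differed less from their sham level. Of the 22 mitosis genes, 6 fell at an adjusted p under 0.05 and none rose, where 0.444% of all genes tested fell and 1.38% rose. They were Depdc1a, Cenpf, Ccnb2, Nusap1, Kif23 and Cdc20. Of the 17 replication genes, 0 were called in either direction by edgeR over all 15 libraries (0 also at an unadjusted p under 0.05, and 0 by DESeq2). Of all genes, 1.82% were called by edgeR and 12.8% had such an unadjusted p. With the WT libraries fitted alone, 1 replication gene was called higher and 2 lower. The median log2 fold change was -0.94 over the mitosis genes (range -1.47 to -0.68), -0.14 over the replication genes (range -0.40 to 0.38) and -0.01 over all genes tested. Every one of the 22 mitosis genes had an unadjusted p under 0.05 in the lower direction, against 4.98% of all genes. In all 22, the 4 WT HI libraries lay below the 3 WT sham libraries without overlap, against 15.8% of all genes.

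Depdc1a, which takes part in mitotic progression, measured 18.6, 17.5 and 15.7 CPM in WT sham 1, 2 and 3. It measured 4.74, 5.19, 8.34 and 6.62 CPM in WT HI 1, 2, 4 and 5. Each HI library lay well below the lowest sham library. The means were 17.3 ± 1.51 (SD, n = 3) and 6.22 ± 1.62 CPM (n = 4), a level 2.77-fold lower after HI (log2 fold change -1.47, SE 0.23; edgeR quasi-likelihood test, Benjamini-Hochberg adjusted p = 0.00665). Cenpf, a kinetochore protein that accumulates in G2, measured 54.6, 55.8 and 49.3 CPM in sham and 12.8, 22.4, 25.2 and 20.7 CPM after HI. Its log2 fold change was -1.39 (SE 0.23, edgeR adjusted p = 0.00877). WT HI 1 was the lowest library for both genes.

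Ccnb2 encodes cyclin B2, a partner of Cdk1 at entry into mitosis. It measured 47.2, 48.6 and 40.9 CPM in WT sham and 13.9, 17.6, 20.4 and 19.1 CPM in WT HI (log2 fold change -1.36, SE 0.28, edgeR adjusted p = 0.0267). Cdc20 activates the anaphase-promoting complex, which ends mitosis. Its libraries were the most even of the 6, with 67.4, 70.6 and 67.4 CPM in sham and 30.4, 31.8, 31.5 and 28.8 CPM after HI. Its means were 68.4 ± 1.86 (SD, n = 3) and 30.6 ± 1.37 CPM (n = 4; log2 fold change -1.16, SE 0.27, edgeR adjusted p = 0.0446). The spindle proteins Nusap1 and Kif23 complete the called genes. Nusap1, which binds and bundles microtubules, was at 44.2 to 53.5 CPM in sham and 19.4 to 26.7 CPM after HI (log2 fold change -1.11, SE 0.24, edgeR adjusted p = 0.0352). Kif23, a kinesin of cytokinesis, was at 46.6 to 52.6 CPM and 16.7 to 25.8 CPM (log2 fold change -1.15, SE 0.26, edgeR adjusted p = 0.0417).

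The other 16 mitosis genes did not pass the adjusted threshold and had lower means after HI in WT. The proliferation antigen Mki67 measured 249, 246 and 195 CPM in sham and 84.7, 158, 137 and 116 CPM after HI. Top2a, the topoisomerase that untangles replicated chromosomes, measured 220, 217 and 189 CPM and then 93.8, 130, 137 and 118 CPM. Cdk1, the kinase that drives mitotic entry, measured 67.0, 67.2 and 59.2 CPM and then 31.7, 49.1, 42.0 and 38.4 CPM. In these 3 genes WT HI 1 was again the lowest library. The mitotic kinases Aurka, Aurkb and Plk1 had sham means of 24.6, 34.3 and 34.6 CPM and HI means of 14, 19.9 and 21.0 CPM. The checkpoint genes Bub1 and Bub1b had sham means of 30.4 and 55.1 CPM and HI means of 16.5 and 31.0 CPM.

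Among the replication genes in WT, the helicase subunits and the clamp differed little between sham and HI. Mcm6 measured 134, 118 and 118 CPM in sham and 107, 109, 129 and 126 CPM after HI. Pcna measured 159, 148 and 140 CPM and then 130, 154, 132 and 117 CPM. E2f1, the activator of S phase genes, measured 21.4, 20.7 and 19.4 CPM and then 19.8, 22.7, 22.8 and 22.9 CPM. In all 3 the groups overlapped. The smallest p-values of the role belonged to Rrm2, Rrm1, Ccne1 and Ccne2, and none passed the adjusted threshold. Rrm2 and Rrm1, the subunits of ribonucleotide reductase, measured 53.5 ± 3.28 and 130 ± 8.24 CPM in sham (SD, n = 3) and 40.7 ± 3.71 and 102 ± 12.4 CPM after HI (n = 4). Their log2 fold changes were -0.40 (SE 0.20, edgeR adjusted p = 0.445) and -0.35 (SE 0.18, edgeR adjusted p = 0.465).

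The 2 E cyclins, partners of Cdk2 at the start of S phase, had changes of opposite sign. Ccne1 measured 8.46, 8.72 and 8.57 CPM in WT sham and 11, 11.8, 11.6 and 10.2 CPM in WT HI (log2 fold change 0.38, SE 0.23, edgeR adjusted p = 0.561). Ccne2 measured 13.7, 14.7 and 13.6 CPM and then 8.80, 9.75, 13.1 and 11.7 CPM (log2 fold change -0.37, SE 0.23, edgeR adjusted p = 0.572). Both had no overlap between groups. In all, 4 replication genes lay lower without overlap (Mcm7, Ccne2, Rrm1 and Rrm2) and 1 higher (Ccne1), where 15.8% and 15.9% of all genes did so.

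The count of called members in WT depended on the libraries and the fit. It was 15 by DESeq2, where 544 of 14853 genes were called higher and 238 lower. It was 25 (24 lower and 1 higher) with the WT libraries fitted alone, where 1298 of 14253 genes were called higher and 1145 lower. These 25 were the 22 mitosis genes, all lower, and replication genes, 2 lower and 1 higher. The count was 0 without WT sham 1, 1 without WT sham 2, 2 without WT sham 3, WT HI 1, WT HI 2, WT HI 4 or WT HI 5, 3 without KO sham 3, 11 without KO sham 1 and 12 without KO HI 1, which enter through the shared estimate of the spread. In the WT libraries, the summed pericyte genes were 8210 to 11400 CPM in sham and 5960 to 8330 CPM after HI (0 of 12 called). Endothelial genes summed to 7970 to 9430 and 7330 to 9520 CPM (0 of 11 called), and microglia and macrophage genes to 2850 to 4120 and 2200 to 5500 CPM (2 of 12 called lower). The 8 neural progenitor genes with values summed to 547 to 667 and 363 to 411 CPM, of which Nes alone gave 536 to 660 and 345 to 400 CPM. Of the 7 progenitor genes tested 0 were called, and their median log2 fold change was -0.05. Oligodendrocyte lineage genes summed to 221 to 747 and 178 to 219 CPM, with a median log2 fold change of -2.79 (0 of 10 called). Neuron genes summed to 69.1 to 194 and 52.4 to 55.4 CPM (median -1.43, 0 of 11 called). Astrocyte genes summed to 594 to 1810 and 828 to 1130 CPM (median -0.54, 0 of 8 called). The part of these lists in the fall of the mitosis genes was not tested. Without the 5 libraries highest in neuron genes (WT sham 2, KO sham 1, KO sham 3, KO HI 2 and KO HI 3), 6 mitosis genes were again called lower and the median was -0.91.

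**Figure D3:**
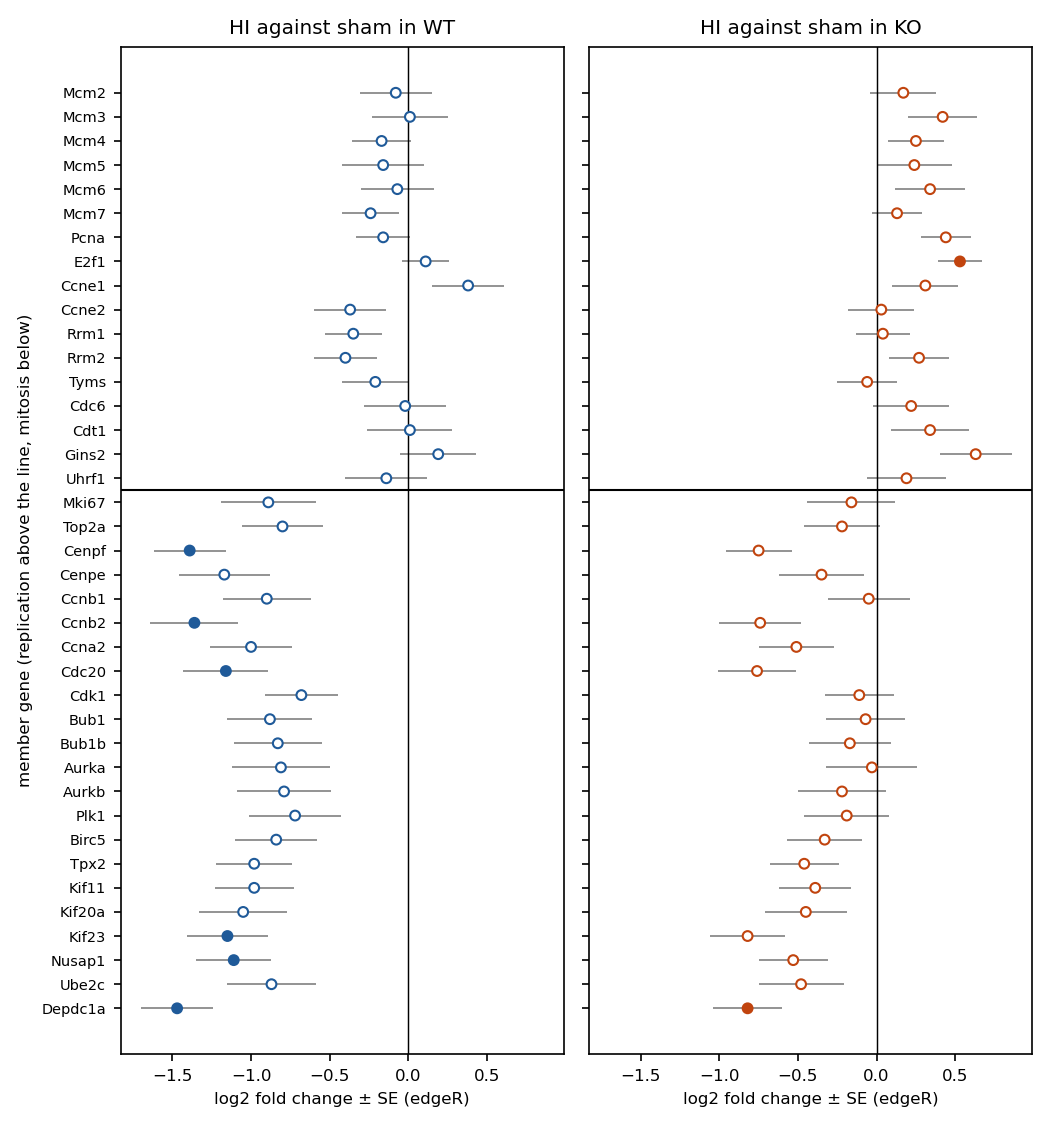
Log2 fold change of HI against sham with its SE (x axis, edgeR) for each of the 39 genes (y axis; replication above the line, mitosis below) in WT (left) and KO (right); filled points have an adjusted p under 0.05. In WT the mitosis genes lie between -1.47 and -0.68 and the replication genes between -0.40 and 0.38; in KO the medians are -0.37 and 0.25, and they are -0.63 and 0.07 without KO HI 1 and -0.53 and 0.12 without KO sham 1.

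In KO animals, 1 replication gene rose and 1 mitosis gene fell after HI, together 2 of 39 against 7.01% of all genes called. E2f1 rose, where 4.88% of all genes rose, and Depdc1a fell, where 2.13% of all genes fell. The median log2 fold change was 0.25 over the replication genes (16 of 17 positive), -0.37 over the mitosis genes (22 of 22 negative) and -0.06 over all genes. Without KO HI 1 these medians were 0.07 (11 of 17 positive) and -0.63, and without KO sham 1 they were 0.12 (12 of 17 positive) and -0.53. At an unadjusted p under 0.05, 3 replication genes were higher (12.5% of all genes) and 6 mitosis genes lower (9.47%). E2f1 was the single member without overlap between KO sham and KO HI (6.06% of all genes were higher in that way, and 2.78% lower).

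E2f1 measured 20.7, 20.2, 29.1 and 27.0 CPM in KO sham 1, 3, 4 and 6 and 43.6, 30.8, 34.6 and 30.9 CPM in KO HI 1, 2, 3 and 4. The lowest HI library stood just above the highest sham library. The means were 24.2 ± 4.47 and 35.0 ± 6.04 CPM (SD, n = 4 each), with a log2 fold change of 0.53 (SE 0.14, edgeR adjusted p = 0.0419). Pcna measured 123, 140, 159 and 155 CPM in KO sham and 263, 146, 180 and 195 CPM in KO HI, and the groups overlapped (log2 fold change 0.44, SE 0.16, edgeR adjusted p = 0.113). Gins2, a subunit of the GINS complex of the replicative helicase, went from 13.4 ± 4.34 to 20.8 ± 5.35 CPM (SD, n = 4 each; log2 fold change 0.63, SE 0.23, edgeR adjusted p = 0.118). Mcm3 was at 92.9 ± 26.7 and 124 ± 37.4 CPM (log2 fold change 0.42, SE 0.22, edgeR adjusted p = 0.297). KO HI 1 was the highest library of all 4 genes.

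Among mitosis genes, Depdc1a measured 9.37, 13.9, 16.0 and 13.0 CPM in KO sham and 9.78, 7.14, 5.93 and 6.82 CPM in KO HI. KO sham 1 lay below KO HI 1, and the other 3 sham libraries lay above all 4 HI libraries. The log2 fold change was -0.82 (SE 0.22, edgeR adjusted p = 0.0404). Cenpf measured 34.9, 42.3, 52.2 and 45.7 CPM and then 36.2, 23.8, 24.8 and 19.7 CPM (log2 fold change -0.75, SE 0.21, edgeR adjusted p = 0.0542). The overlap came again from KO sham 1 and KO HI 1. Kif23 was at 41.1 ± 13.0 and 23.4 ± 7.10 CPM (SD, n = 4 each; log2 fold change -0.82, SE 0.24, edgeR adjusted p = 0.0601), and Cdc20 at 52.6 ± 17.8 and 31.1 ± 10.8 CPM (log2 fold change -0.76, SE 0.25, edgeR adjusted p = 0.0860). Aurka was at 19.4 ± 6.20 and 19.0 ± 7.71 CPM, and Ccnb1 at 34.3 ± 8.69 and 33.3 ± 12.8 CPM.

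KO sham 1 was low and KO HI 1 high across both roles. KO sham 1 was the lowest KO sham library in 15 of 17 replication and 22 of 22 mitosis genes, with a median log2 difference from the mean of the other KO sham libraries of -0.78 and -0.80. KO HI 1 lay above the mean of the other KO HI libraries in all 39 members, with medians of 0.61 and 0.87. Beside this, KO sham 1 had 2100 CPM of neuron, 14900 CPM of astrocyte, 2950 CPM of pericyte and 2780 CPM of endothelial genes, against 67.0 to 402, 468 to 2520, 5150 to 8590 and 5720 to 8180 CPM in the other KO sham libraries. KO HI 1 had 14800 CPM of microglia and macrophage genes against 6980 to 9600 CPM in the other KO HI libraries. Their part in the members' levels was not tested. The count of 2 called members in KO became 8 by DESeq2 (3 higher and 5 lower), 6 without KO sham 1 (all lower), 5 without KO HI 1 (all lower) and 0 or 1 without WT sham 1, 2 or 3, WT HI 2, 4 or 5, KO sham 3, 4 or 6, or KO HI 3 or 4. It was 0 with KO libraries fitted alone. Of all 14853 genes, DESeq2 called 1235 higher and 697 lower. Without KO sham 1, 1030 of 14776 genes were called higher and 897 lower. Without KO HI 1, 272 of 14828 were called higher and 83 lower.

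**Figure D4:**
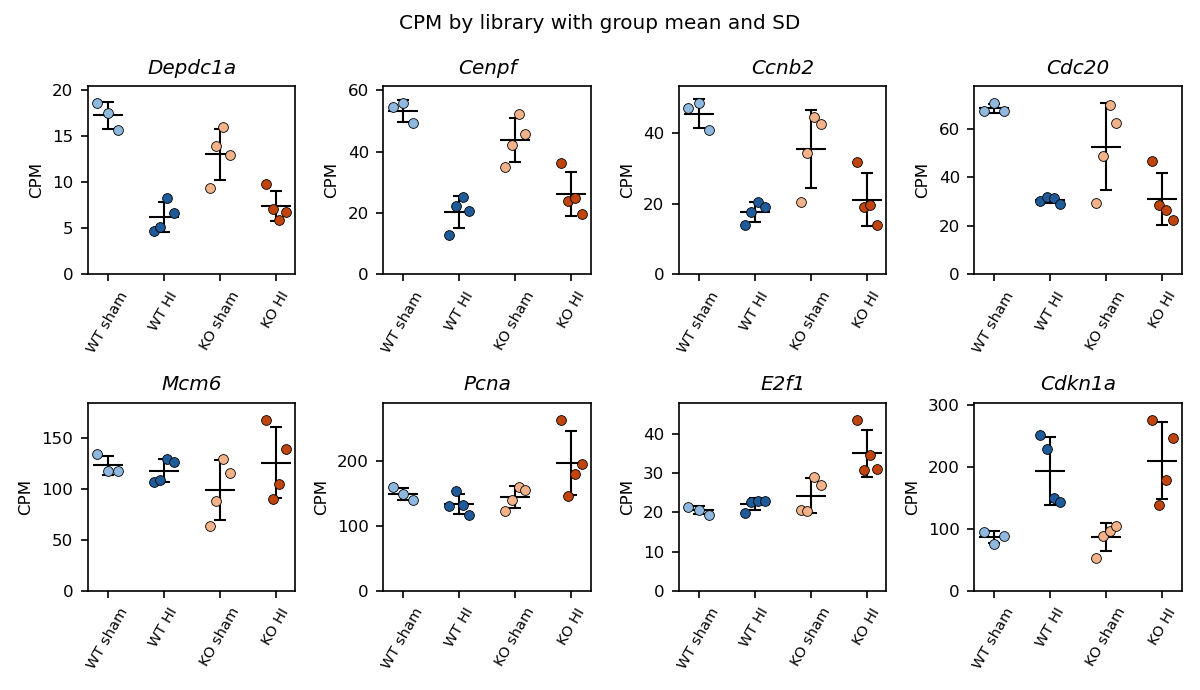
CPM in each library (points, y axis from 0) of 8 genes in the 4 groups (x axis), with group mean and SD (bars). Depdc1a, Cenpf, Ccnb2 and Cdc20 are lower in WT HI than in WT sham without overlap, Mcm6 overlaps in all groups, and E2f1 is highest in KO HI.

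The replication and mitosis genes separated after HI in both genotypes. For each library the mean log2 CPM of the 17 replication genes was subtracted from that of the 22 mitosis genes, so that a shift common to both roles cancels. The value depends on the lengths of the genes, so its zero has no meaning and its movement between libraries is described. It was 0.19, 0.26 and 0.14 in WT sham and -0.89, -0.56, -0.66 and -0.73 in WT HI. It was -0.09, 0.07, 0.02 and -0.02 in KO sham and -0.50, -0.56, -0.63 and -1.03 in KO HI. All 8 HI libraries lay below all 7 sham libraries. The group means were 0.20 ± 0.06 (SD, n = 3) in WT sham, -0.71 ± 0.14 (n = 4) in WT HI, 0.00 ± 0.07 (n = 4) in KO sham and -0.68 ± 0.24 (n = 4) in KO HI. The difference of HI minus sham was -0.91 in WT and -0.67 in KO. KO sham 1 was the lowest sham library and KO HI 1 the highest HI library here too, at -0.09 and -0.50, and KO HI 4 was the lowest of all. These values over the set are a description and carry no test.

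**Figure D5:**
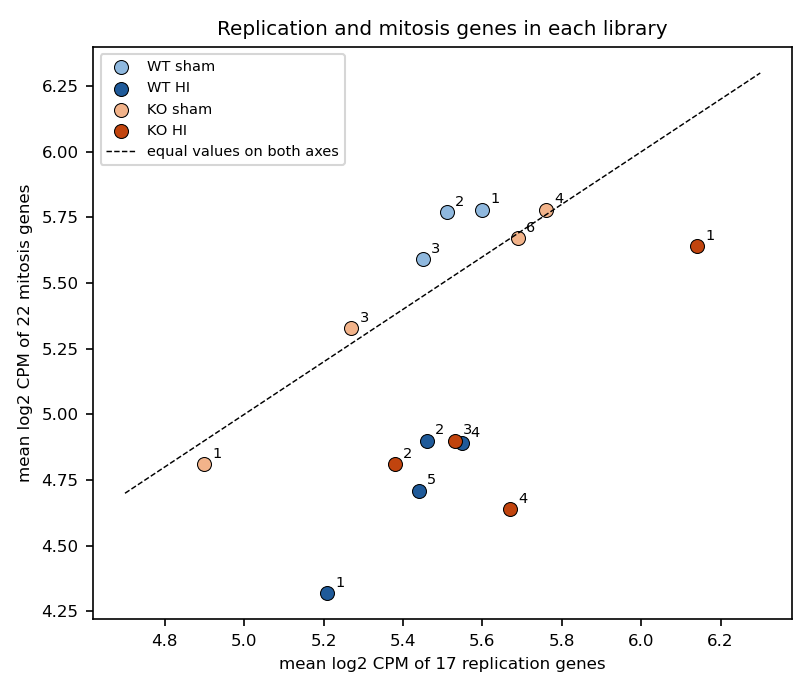
Mean log2 CPM of the 17 replication genes (x axis) against that of the 22 mitosis genes (y axis), 1 point per library coloured by group and numbered by its label; the dashed line marks equal values on both axes. The 8 HI libraries, 0.50 to 1.03 below the line, all lie lower relative to it than the 7 sham libraries. The place of the line itself has no meaning, since the values depend on the lengths of the genes.

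Between genotypes in sham animals no member was called. edgeR called 0 of 39 (0.0135% of all genes were called), 0 had an unadjusted p under 0.05 (8.55% of all genes did), and DESeq2 also called 0. The median log2 difference of KO against WT was -0.08 over replication genes and -0.27 over mitosis genes, against 0.05 over all genes. Depdc1a was at 17.3 ± 1.51 CPM in WT sham (SD, n = 3) and 13.1 ± 2.77 CPM in KO sham (n = 4; log2 difference -0.40, SE 0.23, edgeR adjusted p = 0.477), and Cdc20 at 68.4 ± 1.86 and 52.6 ± 17.8 CPM (log2 difference -0.38, SE 0.27, edgeR adjusted p = 0.513). Kif20a, a mitotic kinesin, measured 56.4, 57.3 and 52.8 CPM in WT sham and 23.1, 40.0, 51.0 and 50 CPM in KO sham. It was the single member without overlap, where 5.49% of all genes were lower in that way. Its log2 difference was -0.44 (SE 0.28, edgeR adjusted p = 0.490). Ccnb1 was at 44.6 ± 4.34 and 34.3 ± 8.69 CPM (log2 difference -0.38, SE 0.28, edgeR adjusted p = 0.525).

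The replication genes with the smallest p-values in sham differed in sign. E2f1 was at 20.5 ± 1.0 CPM in WT (SD, n = 3) and 24.2 ± 4.47 CPM in KO (n = 4; log2 difference 0.24, SE 0.15, edgeR adjusted p = 0.490), and Mcm6 at 123 ± 9.21 and 99 ± 29.3 CPM (log2 difference -0.32, SE 0.23, edgeR adjusted p = 0.521). Ccne1 and Rrm2 had log2 differences of 0.29 (SE 0.22, edgeR adjusted p = 0.538) and -0.20 (SE 0.20, edgeR adjusted p = 0.613). Without the 5 libraries highest in neuron genes the medians were 0.19 and 0.02, so both turned sign. Without KO sham 1 alone they were 0.07 and -0.12.

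After HI, E2f1 and Pcna were higher in KO than in WT, and none of the 22 mitosis genes was called. Of all genes, 5.96% were called higher and 6.46% lower in this comparison, so 2 of 39 is near the background. All 39 members had a positive difference, with medians of 0.25 over replication genes and 0.32 over mitosis genes, against 0.06 over all genes. At an unadjusted p under 0.05 there were 4 members, all higher, where 16% of all genes were. E2f1 measured 19.8 to 22.9 CPM in WT HI and 30.8 to 43.6 CPM in KO HI, with no overlap (log2 difference 0.66, SE 0.14, edgeR adjusted p = 0.0127). Pcna measured 117 to 154 CPM in WT HI and 146 to 263 CPM in KO HI, with overlap (log2 difference 0.55, SE 0.16, edgeR adjusted p = 0.0365). Rrm2 measured 35.1 to 42.8 CPM and 43.1 to 78.7 CPM, and the groups did not overlap (log2 difference 0.46, SE 0.19, edgeR adjusted p = 0.113). E2f1 and Rrm2 were the 2 members without overlap, where 9.89% of all genes were higher in that way.

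Mcm7 was at 71.2 ± 5.10 CPM in WT HI and 88.7 ± 20.8 CPM in KO HI (SD, n = 4 each; log2 difference 0.32, SE 0.16, edgeR adjusted p = 0.201). Of the mitosis genes, Bub1, a checkpoint kinase, had the smallest p, with 11.7, 18.2, 18.6 and 17.4 CPM in WT HI and 38.7, 18.5, 21.0 and 20.1 CPM in KO HI (log2 difference 0.58, SE 0.25, edgeR adjusted p = 0.139). KO HI 1 alone stood far above the WT libraries. The kinetochore motor Cenpe had a log2 difference of 0.55 (SE 0.27, edgeR adjusted p = 0.179), Mki67 of 0.56 (SE 0.28, edgeR adjusted p = 0.183) and Ccnb1 of 0.47 (SE 0.26, edgeR adjusted p = 0.232). Without KO HI 1 the medians were 0.08 and 0.07, and 13 of 17 and 16 of 22 differences were positive. The 2 calls became 0 without WT HI 1 and 1 without WT sham 1, 2 or 3, WT HI 4 or 5, or KO HI 1 or 3. They became 8, all replication genes and all higher, without the 5 libraries highest in neuron genes. In that fit 1853 of 14610 genes were called higher, against 885 of 14853 with all 15 libraries. Beside these differences, microglia and macrophage genes summed to 2200 to 5500 CPM in WT HI and 6980 to 14800 CPM in KO HI (12 of 12 called higher), endothelial genes to 7330 to 9520 and 2280 to 4830 CPM (7 of 11 called lower), and pericyte genes to 5960 to 8330 and 1710 to 5750 CPM (4 of 12 called lower). Their part in the members' differences was not tested.

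The response to HI was then compared between genotypes by the interaction of genotype and treatment. edgeR called 0 of 39 members (0% of all genes were called), DESeq2 called 0, and 4 had an unadjusted p under 0.05, all with a higher KO response, where 2.1% of all genes did so. These were Pcna (0.60, SE 0.23, edgeR adjusted p = 0.932), Rrm2 (0.67, SE 0.27), Bub1 (0.82, SE 0.37) and Ccnb1 (0.85, SE 0.39), given as log2 response in KO minus that in WT. The median was 0.40 over replication genes and 0.58 over mitosis genes, with 38 of 39 positive, against -0.02 over all genes. Without KO HI 1 it was 0.20 and 0.34. The fall of the 6 mitosis genes in WT is thus not shown to differ from their values in KO. The comparisons share libraries, so their values are not independent of each other.

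The wider pathway was described from 6 further lists of 151 genes. In WT, 10 of 55 other mitosis genes fell after HI and none rose (0.444% of all genes fell), with a median of -0.86, and 51 of 55 lay lower without overlap (15.8% of all genes did). Spc25, a subunit of the NDC80 kinetochore complex, measured 25.3, 22.9 and 22.6 CPM in WT sham and 8.40, 11.9, 12 and 12.2 CPM in WT HI (log2 fold change -1.09, SE 0.19, edgeR adjusted p = 0.0105). Ckap2, a spindle protein, had a log2 fold change of -1.2 (SE 0.21, edgeR adjusted p = 0.0127), Pimreg of -1.38 (SE 0.27, edgeR adjusted p = 0.0220) and Mad2l1, the spindle checkpoint protein, of -0.93 (SE 0.19, edgeR adjusted p = 0.0261). Of 44 other replication genes 0 were called in WT (1.82% of all genes were), and 3 had an unadjusted p under 0.05, all lower, where 4.98% of all genes did. Their median was -0.15, and 13 of 44 lay lower without overlap, a larger share than the 15.8% of all genes. The values of the wider lists lay close to those of the members of the same role, with 36 of 44 replication genes and 55 of 55 mitosis genes negative. These lists were chosen with earlier results of these data known and come from the same libraries. They are therefore no separate evidence on the members.

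In KO, 2 of 55 other mitosis genes fell, where 2.13% of all genes fell. They were Spc25 (log2 fold change -0.63, SE 0.17, edgeR adjusted p = 0.0452) and Ckap2 (-0.82, SE 0.20, edgeR adjusted p = 0.0295). Spc25 measured 17.2, 20.9, 24.0 and 19.5 CPM in KO sham and 17, 11, 10.3 and 14.2 CPM in KO HI, so KO sham 1 and KO HI 1 nearly met. None of 44 other replication genes was called in KO by edgeR (7.01% of all genes were), 3 had an unadjusted p under 0.05, all higher (12.5% of all genes did so), and the smallest p was that of Gins1, another GINS subunit (0.82, edgeR adjusted p = 0.0561). After HI, 2 of 44 other replication genes and 1 of 55 other mitosis genes were called higher in KO than in WT, where 5.96% of all genes were. The replication genes were Rpa3, of the single-strand binding protein, and Rfc2, of the clamp loader (log2 differences 0.79, SE 0.17, edgeR adjusted p = 0.0122, and 0.34, SE 0.10, edgeR adjusted p = 0.0395). The mitosis gene was Arhgap11a (0.63, SE 0.19, edgeR adjusted p = 0.0440).

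Of the regulators upstream of E2F, the CDK inhibitor Cdkn1a (p21), which blocks the cyclin E and cyclin A kinases, measured 94.8, 75.6 and 88.8 CPM in WT sham and 251, 229, 149 and 143 CPM in WT HI. In KO it measured 53.6, 89.0, 96.3 and 105 CPM in sham and 276, 139, 178 and 247 CPM after HI. The HI libraries lay above the sham libraries in both genotypes. Cdkn1a rose in KO (log2 fold change 1.29, SE 0.26, edgeR adjusted p = 0.0132), and the value in WT was 1.16 (SE 0.29, edgeR adjusted p = 0.0623). Cdkn2c (p18), an inhibitor of the cyclin D kinases and itself an E2F target, fell in WT from 48.1 ± 4.86 (SD, n = 3) to 24.0 ± 3.22 CPM (n = 4; log2 fold change -1.0, SE 0.19, edgeR adjusted p = 0.0173). Cdkn1b (p27) and Cdkn1c (p57) had values of -0.18 and -0.20 in WT and -0.20 and -0.33 in KO, and neither was called.

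The D cyclins, which start the passage through G1, were not called after HI in either genotype. Ccnd1 had log2 fold changes of -0.27 in WT and -0.12 in KO, Ccnd2 of -0.40 and -0.70, and Ccnd3 of 0.21 and -0.24. After HI, Ccnd3 was lower in KO than in WT (-0.64, SE 0.19, edgeR adjusted p = 0.0479), 1 of 13 genes of its list, where 6.46% of all genes were lower. Mycn, a growth regulator placed in the same list, fell in KO from 5.28 ± 0.842 to 2.5 ± 0.903 CPM (SD, n = 4 each; log2 fold change -1.08, SE 0.23, edgeR adjusted p = 0.0148), and its value in WT was -0.69 (SE 0.24, edgeR adjusted p = 0.197). E2f3, an E2F gene that is a known target of miR-210, differed little in any comparison: -0.04 and -0.03 for HI against sham in WT and KO, and -0.05 and -0.04 for KO against WT in sham and after HI. Its group means were 31.7 to 33.5 CPM.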

How the data were processed

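RNA of PDGFRβ-positive cells was sequenced in 15 libraries. The deposited table holds expected counts per gene for 65535 lines, of which 17892 carry values in all 15 libraries and 47643 are blank; 3.12% to 3.92% of values per library were not whole. The unit was read from the values. Per the submitters' processing notes, HISAT2 2.1.0, Bowtie2 2.4.4, RSEM 1.3.1 and DESeq2 1.4.5 were named with build mm39; the settings are not given in the sources used here. Symbols were matched by Entrez number to RefSeq (17862 lines). The expected counts deposited by the authors were rounded to whole numbers, filtered by expression, scaled by TMM and fitted with the quasi-likelihood test of edgeR 4.0.16 (R 4.3.3) over all libraries with 4 group means. Benjamini-Hochberg adjustment covered 14853 genes, with a threshold of 0.05. The fit was checked on simulated data. Alternatives were DESeq2 1.42.0, limma-voom, RLE factors, other filters, fits of the compared groups alone, a replicate block, and fits without libraries. Members and lists were chosen with earlier results of these data known. Genes given in full were those called in a pairwise comparison and the 4 with the smallest p per role and comparison; in other lists, up to 4 called genes, else the smallest p, and Cdkn1a, Cdkn1b, Cdkn1c, Ccnd1 to Ccnd3 and E2f3; other values named serve as examples.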

Additional observations from a re-analysis of the deposited data

Results flagged for a closer look

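A library far from the other 3 of its group was found in 12 of 126 combinations of member (or set summary) and group of 4 libraries, where the gap to the nearest library exceeded 0.829 of the group's range (Dixon's test). Chance flags about 1 in 20 such groups, and the members share libraries. KO HI 1 was the high library in 8 of them, in CPM: Mcm5 at 140, Rrm1 at 163, Tyms at 39.3, Uhrf1 at 126, Top2a at 234, Ccna2 at 80.7, Cdk1 at 70.9 and Bub1 at 38.7. WT HI 1 was the low library in the other 4: Mcm7 at 63.5, E2f1 at 19.8, Rrm2 at 35.1 and Gins2 at 13.0 CPM. KO HI 1 had the largest sum of microglia and macrophage genes (14800 CPM), and its part in these levels was not tested.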

How the results depend on the processing

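The medians of the mitosis genes for HI against sham in WT stayed negative in all 23 alternatives, with 22 of 22 genes negative in each, while the counts of calls moved. Members called in WT (6) were 15 by DESeq2, 25 with the compared groups fitted alone and 0 with the replicate block, and 0 to 12 when 1 library was left out. In KO (2) they were 8 by DESeq2, 0 without a filter, 0 with the groups alone, 0 with the block and 0 to 6 without 1 library. For KO against WT after HI (2) they were 1 with the groups alone, 0 with the block, 8 without the 5 libraries highest in neuron genes and 0 to 2 without 1 library. The other 2 comparisons called 0 members in each alternative. Over all genes, WT called 271 (DESeq2 782, groups alone 2443, block 16, without the 5 libraries 750, 1 library left out 48 to 554), KO 1041 (1932, 16, 73, 2458, 355 to 1927) and KO against WT after HI 1844 (DESeq2 3399, block 21, without the 5 libraries 3440, 1 library left out 481 to 3605); KO against WT in sham called 2 (DESeq2 32) and the interaction 0 (DESeq2 22). The CHR share of mitosis genes was 50% in the 250 bases before the start, and the E2F share of replication genes 21.4%. The HI minus sham value of mitosis against replication genes was -0.96 to -0.85 in WT and -0.73 to -0.56 in KO without 1 library. The labels do not say whether same-numbered libraries belong together. The correlations of their deviations were -0.78 to 0.78. Some libraries correlated best with their own number in the compared group, such as KO sham 4 with KO HI 4. Others did not, such as KO sham 1, which correlated best with KO HI 3. The block leaves few degrees of freedom. The cause of the other changes was not tested. A fit without 1 library has fewer samples, and a BCV of 38.6% limits what 3 or 4 libraries can show.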

Other observations

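Of 11 chromatin and tubulin genes of dividing cells, Hmgb2, a chromatin protein abundant in dividing cells, fell after HI in WT from 222 ± 12.1 (SD, n = 3) to 104 ± 10.5 CPM (n = 4; log2 fold change -1.09, SE 0.19, edgeR adjusted p = 0.0112). In KO it was at 191 ± 42.6 and 145 ± 34.4 CPM (SD, n = 4 each; log2 fold change -0.40, SE 0.18). Hmgn2 was higher in KO than in WT after HI (log2 difference 0.45, SE 0.12, edgeR adjusted p = 0.0247), 1 of the 11 genes, where 5.96% of all genes were higher. Of 14 E2F and DREAM complex genes, 0 were called by edgeR in WT after HI (0.444% of all genes fell), and 6 were lower at an unadjusted p under 0.05 (4.98% of all genes were). In KO, 1 of the 14 fell, where 2.13% of all genes fell. It was Tfdp2, a partner of E2F proteins (log2 fold change -0.42, SE 0.12, edgeR adjusted p = 0.0470). Its call held in 7 of 23 alternatives.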
